A study of Mus musculus with 6 samples.

Results

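The genes described here are 37 interferon-stimulated genes, the antiviral and antimicrobial genes that cells switch on when interferons bind their receptors. They were taken as a list of symbols, and a gene was read where the array carried a probe set annotated to it alone. That held for 35 of the 37, out of 18194 genes measured in all; Isg15 and Ifi44 have no such probe set among those analysed here. The 35 genes are covered by 60 probe sets, and a gene was represented by its brightest probe set, averaged over both genotypes. Expression was measured in wire-injured carotid arteries of mice, on 3 arrays of IRF4 KO mice, which lack the transcription factor IRF4 in every tissue, and on 3 arrays of WT mice. Both genotypes had the same operation, in which a wire is passed along the vessel, and arteries were taken 14 days later. RNA of 3 to 5 vessels was pooled per array, the labels call the 3 arrays of a genotype biological samples, and p-values here measure the spread between such pools. The sources used here do not give strain, age or the deleted part of Irf4. No uninjured artery is among the 6 arrays, so all values are levels after injury.

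Type I interferons (IFN-alpha and IFN-beta) act through a receptor whose kinases switch on a complex holding STAT2 and IRF9, which binds the interferon-stimulated response element (ISRE), a DNA motif built on repeated GAAA. Type II interferon, IFN-gamma, is made mainly by T and NK cells, acts through its own receptor on genes with a gamma-activated site (GAS), and also raises IRF1, which binds ISREs. IRF4 is a relative of these factors that also recognises ISRE-like DNA, often with a partner protein. It is found mainly in lymphocytes and myeloid cells, and interferons do not induce it. Of the 37 genes, 4 were set apart as type II genes because IFN-gamma induces them strongly: Gbp2, Gbp3, Irgm1 and Igtp, which encode GTPases. They respond to type I interferon as well. The other 33, of which 31 were measured, are called type I genes here.

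The promoters below were searched for the ISRE and GAS motifs of the interferon response. They are the RefSeq sequences (GRCm38.p6) from 250 bases before to 50 bases after the start, 5′ to 3′ on the gene's strand, of the 4 type II genes and of the 4 type I genes with the smallest p that have a sequence in the table. Capitals mark a GAAA followed after any 2 bases by another GAAA (an ISRE core) or a TTCNNNGAA (a GAS core), read on both strands, so that an ISRE core can also appear as TTTC repeats.
Gbp2 (chr3:142620413-142620712, + strand): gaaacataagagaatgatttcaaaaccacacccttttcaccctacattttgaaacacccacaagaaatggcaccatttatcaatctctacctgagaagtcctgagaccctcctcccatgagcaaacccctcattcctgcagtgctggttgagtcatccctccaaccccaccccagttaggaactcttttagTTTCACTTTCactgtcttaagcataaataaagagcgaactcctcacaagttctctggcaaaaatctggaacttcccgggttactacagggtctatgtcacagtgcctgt
Gbp3 (chr3:142559794-142560093, + strand): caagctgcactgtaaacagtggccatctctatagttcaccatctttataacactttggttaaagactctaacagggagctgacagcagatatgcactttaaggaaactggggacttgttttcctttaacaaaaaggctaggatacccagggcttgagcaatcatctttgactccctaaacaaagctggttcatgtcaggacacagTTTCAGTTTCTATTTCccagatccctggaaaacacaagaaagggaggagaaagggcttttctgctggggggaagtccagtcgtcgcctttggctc
Irgm1 (chr11:48871371-48871670, - strand): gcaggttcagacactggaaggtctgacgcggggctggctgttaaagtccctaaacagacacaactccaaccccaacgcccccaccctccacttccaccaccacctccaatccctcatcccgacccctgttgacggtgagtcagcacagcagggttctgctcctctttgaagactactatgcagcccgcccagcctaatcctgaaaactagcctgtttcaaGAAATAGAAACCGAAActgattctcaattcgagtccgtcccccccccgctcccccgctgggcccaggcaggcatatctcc
Igtp (chr11:58199306-58199605, + strand): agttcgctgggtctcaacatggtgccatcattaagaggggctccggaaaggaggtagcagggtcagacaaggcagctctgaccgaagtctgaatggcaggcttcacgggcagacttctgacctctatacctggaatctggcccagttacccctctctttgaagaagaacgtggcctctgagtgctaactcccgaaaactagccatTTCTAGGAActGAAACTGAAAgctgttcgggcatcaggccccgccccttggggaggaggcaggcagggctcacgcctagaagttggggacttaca
Rsad2 (chr12:26456403-26456702, - strand): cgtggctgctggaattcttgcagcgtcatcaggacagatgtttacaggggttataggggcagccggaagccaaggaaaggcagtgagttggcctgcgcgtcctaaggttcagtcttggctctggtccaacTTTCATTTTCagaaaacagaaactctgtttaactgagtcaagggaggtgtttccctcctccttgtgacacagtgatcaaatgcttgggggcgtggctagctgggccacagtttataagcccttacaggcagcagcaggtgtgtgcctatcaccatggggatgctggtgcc
Ifi35 (chr11:101448162-101448461, + strand): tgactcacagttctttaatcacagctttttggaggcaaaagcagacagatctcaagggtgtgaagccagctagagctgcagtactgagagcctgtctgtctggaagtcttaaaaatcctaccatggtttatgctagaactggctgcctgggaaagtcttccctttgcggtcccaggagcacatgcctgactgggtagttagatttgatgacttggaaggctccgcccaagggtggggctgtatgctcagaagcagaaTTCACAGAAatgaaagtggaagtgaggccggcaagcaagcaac
Ifit3 (chr19:34583279-34583578, + strand): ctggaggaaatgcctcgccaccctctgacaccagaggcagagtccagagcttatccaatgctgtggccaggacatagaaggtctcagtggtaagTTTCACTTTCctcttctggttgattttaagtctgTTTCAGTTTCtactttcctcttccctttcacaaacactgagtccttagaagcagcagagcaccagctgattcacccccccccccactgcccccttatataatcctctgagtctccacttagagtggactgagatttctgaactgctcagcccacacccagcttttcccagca
Ifit1 (chr19:34640639-34640938, + strand): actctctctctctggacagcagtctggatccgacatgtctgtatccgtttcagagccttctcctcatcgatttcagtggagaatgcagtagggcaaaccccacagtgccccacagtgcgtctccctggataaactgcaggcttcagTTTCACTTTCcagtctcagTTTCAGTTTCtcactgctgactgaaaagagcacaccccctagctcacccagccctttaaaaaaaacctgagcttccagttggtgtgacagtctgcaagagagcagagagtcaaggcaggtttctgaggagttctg

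Of the 37 genes, 27 had a promoter in that table, with 33 start sites between them. An ISRE core lay in 16 of the 33 promoters (48.5%), against 3.44% of the 32851 promoters of all genes. A GAS core lay in 10 of the 33 (30.3%), against 8.30% of all promoters. All 4 type II genes held an ISRE core in a promoter (4 of their 5 promoters), and Igtp alone among them held a GAS core as spelled here. Among the type I genes, 12 of 28 promoters held an ISRE core and 9 held a GAS core. Ifit1 and Ifit3 each carried 2 ISRE cores, Rsad2 carried 1, and Ifi35 carried a GAS core and no ISRE core. A motif match is a description of letters and was not tied to binding in these arteries; in Bst2 and Ifitm3 the matches of the 2 motifs share bases.

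**Figure D1:**
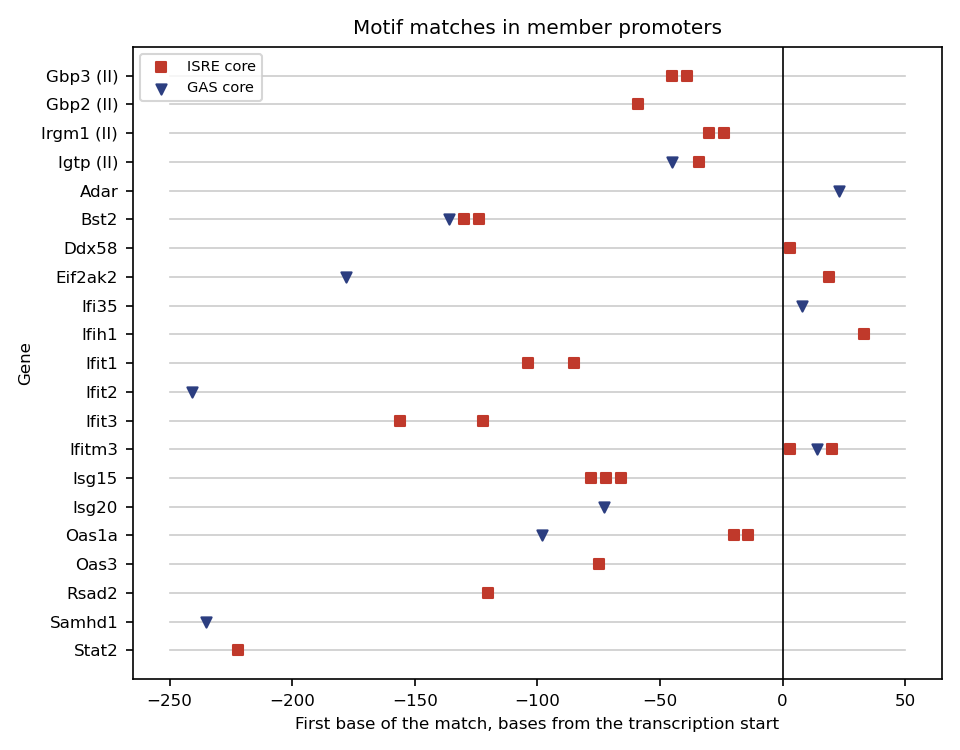
Position of each motif match in the member promoters that hold at least 1; the x axis gives the first base of the match in bases from the transcription start, squares are ISRE cores, triangles are GAS cores, and (II) marks type II genes. The ISRE cores of Gbp2, Gbp3, Irgm1 and Igtp begin between positions -59 and -24, and those of Ifit1 and Ifit3 between -156 and -85.

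The arrays were checked before the genes were compared. The targeted gene Irf4 read 3.27, 3.75 and 3.70 in IRF4 KO and 3.90, 3.64 and 3.38 in WT, below the median of all gene values (4.89) on every array, so it did not check the labels. The smooth muscle myosin gene Myh11, a defining marker of the labelled artery, read 11.4 to 12.3 on the 6 arrays. Of 7 smooth muscle markers 4 read higher and 3 lower in IRF4 KO with 0 past the test, and Acta2, Tagln and Smtn differed by 1.14, 1.08 and 1.09 without overlap of the genotypes (adjusted p = 0.252 each in limma). The part of this difference in those of the interferon-stimulated genes was not tested. IRF4 KO 1 and WT 3 stood apart: their poly-A spike-in controls, bacterial RNAs added before labelling, averaged 5.14 and 4.93, against 7.35 to 9.26 on the other 4 arrays. Marker genes of some other cell types moved with this pair, and those of B cells, NK cells and adipocytes did not. On IRF4 KO 1 and WT 3 their means, as differences from the mean over the arrays, were -0.05 and -0.21 for B cell markers. They were 0.07 and -0.13 for NK cell markers, and -0.39 and 0.25 for adipocyte markers. The mean of 7 macrophage markers, as a difference from its mean over the arrays, was 2.49 in IRF4 KO 1 and 1.56 in WT 3, against -1.44 to -0.38 on the other 4, the mean of 5 cartilage markers was 3.07 and 2.88 against -1.72 to -1.20, and that of 4 adventitial fibroblast markers was 1.86 and 1.22 against -0.92 to -0.63. Of the 7 macrophage markers 6 were higher on the pair. The seventh, Mrc1, read 3.16, 3.10 and 3.30 in IRF4 KO and 4.28, 4.26 and 4.12 in WT, a difference of -1.03 without overlap (adjusted p = 0.291 in limma). The summed macrophage level, as a mean over the 7 genes, ran from 4.37 to 8.30 in IRF4 KO and from 4.77 to 7.37 in WT; RMA values have no zero. Each set of arrays holds both genotypes, so results are also given within the pair (IRF4 KO 1 minus WT 3, 1 array each) and over the other 4 arrays.

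Over the 6 arrays most interferon-stimulated genes read somewhat higher in IRF4 KO than in WT, but none passed the test. The largest positive differences were those of Rtp4, Usp18, Ifit3, Ifit1 and Rsad2, at 1.47- to 1.99-fold, and the largest negative ones those of the type II genes Gbp2 (2.15-fold lower) and Igtp (1.65-fold lower). With limma's moderated test and Benjamini-Hochberg adjustment over all 18194 genes, 0 of the 35 had an adjusted p under 0.05, where the background was 0% of all genes (0 of 18194); the adjusted p of every member rounded to 0.999. At an unadjusted p under 0.05 there were 2 members, Rsad2 and Rtp4, both higher (5.71% of the 35, against 1.49% of all genes). By direction, 0.407% of all genes were higher and 1.08% lower at that p, and 0 members were lower. Genotypes did not overlap in 3 members, Rsad2 and Stat2 (higher) and Ifi35 (lower), or 8.57%, against 5.68% of all genes (2.37% higher and 3.31% lower). In all, 24 of 35 members read higher in IRF4 KO (68.6%, against 49.7% of all genes), with a median log2 change of 0.17 against -0.0015 over all genes. The spread within a genotype was large for these genes, with a median SD of 0.37 against 0.29 over all genes. The median depended on the arrays kept: without IRF4 KO 1 it was -0.014, with 17 of 35 higher. Without both IRF4 KO 1 and WT 3 the median was 0.14, with 21 of 35 higher. The sign of the median also changed when dim genes were left out: among the 19 members above the median level 9 were higher, with a median of -0.054. All 4 type II genes are among these 19, where the median was 0.12 for type I and -0.42 for type II genes. In whole arteries, fewer cells of a type and less RNA per cell cannot be told apart.

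**Figure D2:**
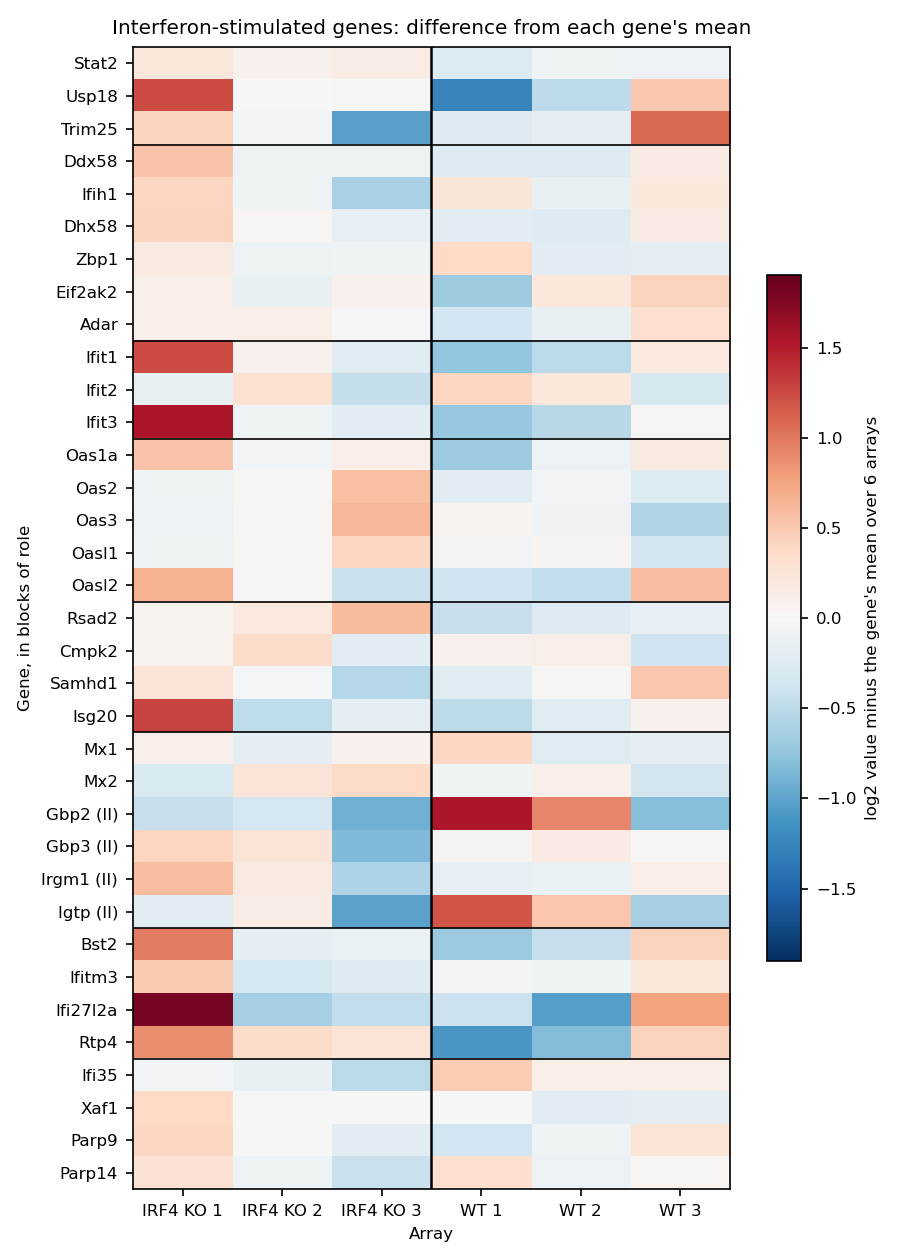
Difference of each of the 35 genes from its own mean over the 6 arrays, in log2 units, with genes in rows (blocks of role separated by lines, type II genes marked II) and arrays in columns. IRF4 KO 1 is the highest array for 18 of the 35 genes, against 17.7% of all genes. Gbp2 and Igtp are highest in WT 1 and WT 2 (5.71% of the 35, against 6.23% of all genes).

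Among the signalling genes, Stat2, a transcription factor of the type I response, showed a small and even difference. It read 4.36, 4.24 and 4.30 in IRF4 KO and 3.90, 4.08 and 4.04 in WT. All IRF4 KO arrays lay above all WT arrays, and both its probe sets went the same way (0.29 and 0.24); the log2 change was 0.29 (SE 0.17), with an adjusted p of 0.999 in limma. Usp18, the protease that removes ISG15 from proteins and blocks the type I receptor, read 4.54, 3.30 and 3.33 in IRF4 KO and 2.03, 2.80 and 3.82 in WT. WT 3 lay among the IRF4 KO arrays and WT 1 was far below the rest, so that the change of 0.84 (SE 0.49) came with SDs of 0.71 in IRF4 KO and 0.90 in WT, 3 arrays each. Leaving out IRF4 KO 1 gave 0.43, leaving out WT 1 gave 0.41, and leaving out WT 3 gave 1.31. Stat2 and Usp18 averaged 4.15 and 3.30 over all arrays, below the median gene value. Trim25, the ubiquitin ligase that activates RIG-I, read 6.33 ± 0.74 in IRF4 KO and 6.78 ± 0.75 in WT (SD, n = 3 each), and its 3 probe sets differed in sign, from -0.44 to 0.11.

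The sensors of viral nucleic acids differed little between the genotypes. Changes ran from -0.19 for Ifih1 (MDA5, a sensor of long double-stranded RNA) to 0.22 for Ddx58 (RIG-I, a sensor of short RNA ends). Dhx58 (LGP2, their regulator) was at 0.21, Adar, which edits double-stranded RNA, at 0.13, Eif2ak2 (PKR, which halts translation) at 0.033 and Zbp1, a sensor of Z-form nucleic acids, at -0.0026. In this group 4 of 6 genes were higher and 2 lower, and the 95% interval of Ddx58 spanned -0.33 to 0.77. Eif2ak2, Dhx58 and Zbp1 read below the median gene value, where RMA understates changes.

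The IFIT family, proteins that bind viral RNA and are among the first genes induced by type I interferon, did not share 1 direction. Ifit1 read 5.20, 4.05 and 3.73 in IRF4 KO and 3.21, 3.46 and 4.15 in WT. Ifit3 read 6.86, 5.24 and 5.10 in IRF4 KO and 4.61, 4.80 and 5.34 in WT. In both genes IRF4 KO 1 was highest, WT 3 lay above IRF4 KO 2 and IRF4 KO 3, and WT 1 and WT 2 were the lowest. The log2 changes were 0.72 (SE 0.40) and 0.82 (SE 0.45), and without IRF4 KO 1 they were 0.29 and 0.26. Within the pair the differences were 1.06 and 1.52, and over the other 4 arrays 0.56 and 0.47. Ifit1 averaged 3.97 over all arrays, below the median gene value. Ifit2 differed the other way, at 5.65 ± 0.37 in IRF4 KO and 5.86 ± 0.37 in WT (SD, n = 3 each), a change of -0.21; the contrast between Ifit2 and its relatives was not tested. No ISRE core as spelled here lay in the Ifit2 promoters, 1 of which held a GAS core at -241, while the Ifit1 and Ifit3 promoters printed above each held 2 ISRE cores. Any link of these matches to the direction of the changes was not tested. Probe sets for Ifit3 may also bind transcripts of its near-identical copy.

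The OAS family, which makes the second messenger that activates the RNA-degrading enzyme RNase L, was higher in 5 of 5 genes, with 0 of them past the test. The changes were 0.42 for Oas1a, 0.34 for Oas2, 0.37 for Oas3, 0.22 for Oasl1 and 0.17 for Oasl2; the last 2 are OAS-like proteins, of which mouse Oasl1 restrains IRF7 translation. All 5 were also higher within the pair (0.072 to 0.46) and over the other 4 arrays (0.21 to 0.44). Oas1a averaged 6.23 ± 0.31 in IRF4 KO and 5.81 ± 0.44 in WT (SD, n = 3 each). The arrays behind these changes differed: Oas2, Oas3 and Oasl1 were highest in IRF4 KO 3, and Oas1a and Oasl2 in IRF4 KO 1. All but Oas1a read below the median gene value.

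Rsad2 (viperin, which makes a chain-terminating nucleotide that stops viral polymerases) had the smallest p of the members. It read 4.76, 4.89 and 5.30 in IRF4 KO and 4.26, 4.46 and 4.55 in WT. The genotypes did not overlap, and the log2 change was 0.56 (SE 0.21), or 1.47-fold, with a 95% interval of 0.079 to 1.04 before adjustment. It ranked 108 by p among all genes, and its 2 dimmer probe sets differed by 0.11 and 0.0078. Rsad2 averaged 4.70 over all arrays, below the median gene value. Cmpk2, a nucleotide kinase gene that lies beside Rsad2 and is induced with it, differed by 0.13. Samhd1, which depletes the nucleotides viruses need, read 6.96, 6.68 and 6.17 in IRF4 KO and 6.47, 6.72 and 7.22 in WT, with overlapping genotypes and a change of -0.20 (SE 0.28) that was positive on 4 of its 5 probe sets. Isg20, an exonuclease gene, read 4.86 ± 0.95 in IRF4 KO and 4.44 ± 0.29 in WT (SD, n = 3 each), and IRF4 KO 1 alone held the difference, at 5.94 against 4.16 to 4.73 on the other 5 arrays.

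Among the membrane and trafficking genes, Rtp4 had the largest positive difference of the 35. Rtp4, a chaperone of receptors that also inhibits RNA viruses, read 6.004, 5.47 and 5.38 in IRF4 KO and 4.02, 4.29 and 5.56 in WT. WT 1 and WT 2 were low, and WT 3 lay within the IRF4 KO range. The log2 change was 0.995 (SE 0.39), or 1.99-fold, with a 95% interval of 0.092 to 1.898 and an adjusted p of 0.999 in limma. A dim second probe set of Rtp4 read 2.10 ± 0.029 in IRF4 KO and 2.34 ± 0.36 in WT (SD, n = 3 each), a difference of -0.24, so the positive difference rests on 1 probe set. Ifitm3, which blocks viral entry from endosomes, read 10.76, 9.93 and 10.01 in IRF4 KO and 10.20, 10.18 and 10.48 in WT. IRF4 KO 1 was highest, IRF4 KO 2 and IRF4 KO 3 were lowest, and the change was -0.054 (SE 0.26). Bst2 (tetherin, which holds budding virus at the membrane) and Ifi27l2a, a small membrane protein gene, were 0.46 higher each, with SDs of 0.66 and 1.36 in IRF4 KO.

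**Figure D3:**
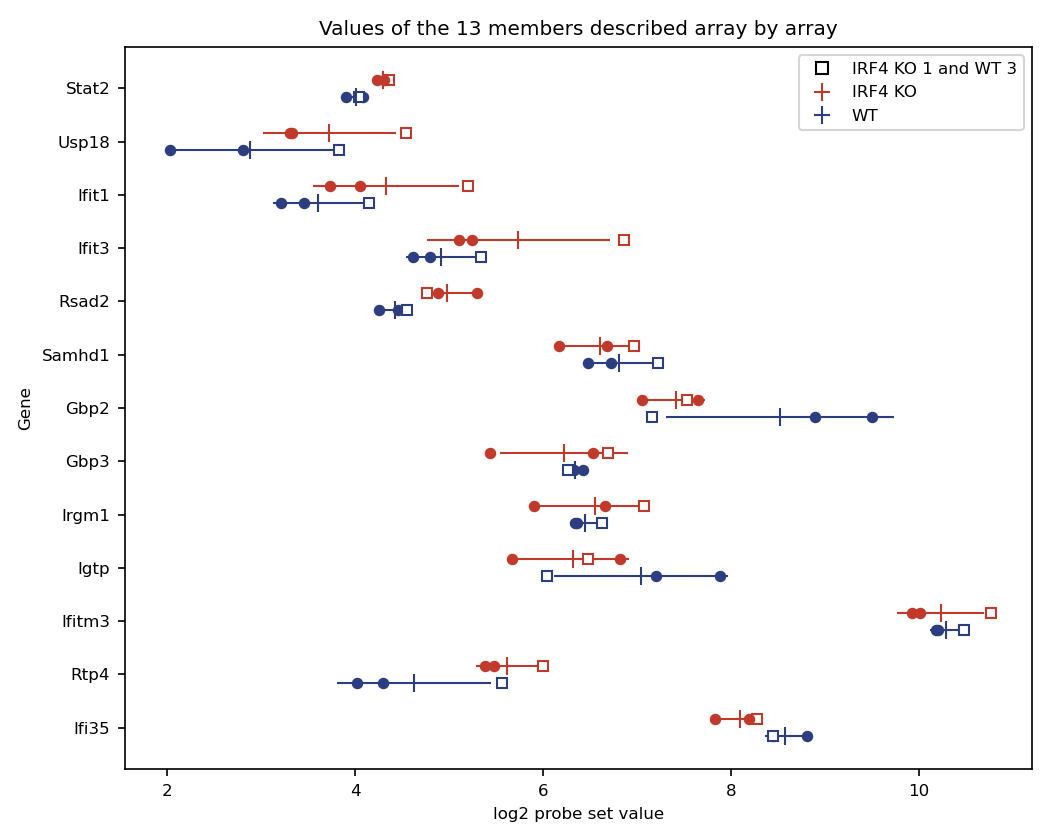
log2 probe set values on every array for the 13 members described array by array (x axis), with IRF4 KO above WT for each gene; vertical ticks are means, horizontal bars are SDs over 3 arrays, and open squares are IRF4 KO 1 and WT 3. Genotypes separate only in Stat2, Rsad2 and Ifi35, and WT arrays of Gbp2 range from 7.16 to 9.50.

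Of the remaining type I genes, Ifi35 had the smallest p among those that read lower. Ifi35, a partner of NMI released in inflammation, read 8.27, 8.19 and 7.83 in IRF4 KO and 8.81, 8.45 and 8.45 in WT. All 3 IRF4 KO arrays lay below all WT arrays on this brightest probe set. Its 3 probe sets were all lower, at -0.47, -0.41 and -0.29. On the dimmer ones the genotypes overlapped, with IRF4 KO 1 above WT 3 (6.86 against 6.82, and 6.56 against 6.31). The change of -0.47 (SE 0.21) had an adjusted p of 0.999 in limma. Xaf1, a gene of programmed cell death, was at 0.25, and Parp9 and Parp14, ADP-ribosyltransferase genes that lie in one cluster, at 0.12 and -0.16. The antiviral dynamin-like GTPases Mx1 and Mx2 were at 0.0043 and 0.22; Mx1 is defective in many laboratory strains and read 2.37 to 2.98 on all arrays.

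Of the type II GTPases 3 of 4 read lower in IRF4 KO, none past the test, and the difference was uneven across the arrays. Gbp2, a guanylate-binding protein that coats pathogen vacuoles, read 7.53, 7.65 and 7.05 in IRF4 KO and 9.50, 8.89 and 7.16 in WT. WT 1 and WT 2 were far above the other 4 arrays, and WT 3 lay inside the IRF4 KO range. The change was -1.11 (SE 0.53, limma adjusted p = 0.999), and the second Gbp2 probe set gave -0.75. It was -0.62 without WT 1 and -1.79 without WT 3. Igtp (Irgm3), an immunity-related GTPase, read 6.47, 6.82 and 5.67 in IRF4 KO and 7.88, 7.21 and 6.04 in WT. The same 2 WT arrays were highest, and the change was -0.72 (SE 0.47), or -0.30 without WT 1, -0.40 without IRF4 KO 3 and -1.22 without WT 3. Both WT 1 and WT 2 lay above all other 4 arrays in 2 of 35 members (5.71%), against 6.23% of all genes. Gbp3 read 6.69, 6.53 and 5.44 in IRF4 KO and 6.33, 6.43 and 6.27 in WT, a change of -0.12 (SE 0.32). Irgm1, which protects the cell's own membranes from the other GTPases, read 7.08, 6.66 and 5.91 in IRF4 KO and 6.34, 6.37 and 6.62 in WT, a change of 0.10 (SE 0.30). The IRF4 KO arrays of Gbp3 and Irgm1 spread across the WT range, and IRF4 KO 3 was the lowest of the 6 arrays in all 4 type II genes.

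**Figure D4:**
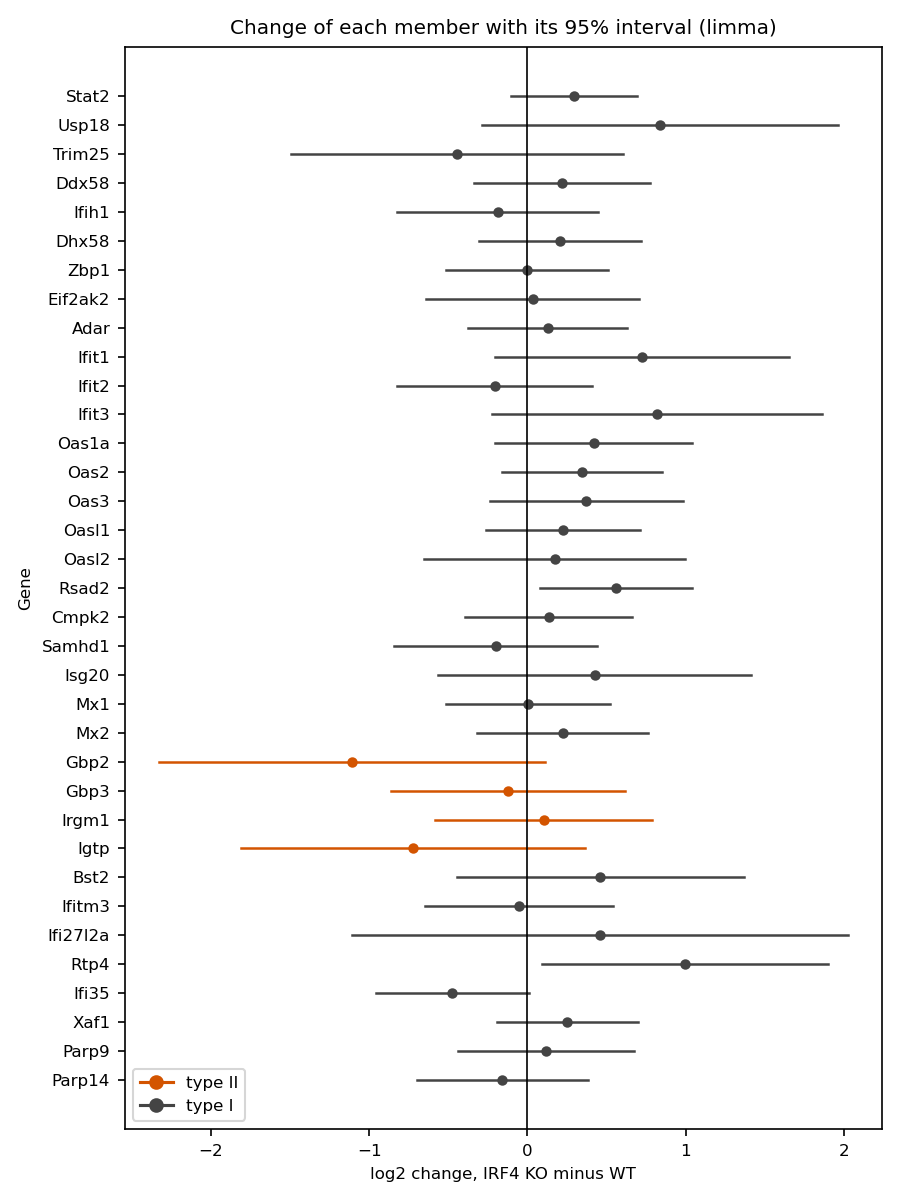
log2 change (IRF4 KO minus WT) of each of the 35 members as a point with its 95% interval from limma as a line, type II genes in orange and type I genes in grey. Intervals of 2 genes, Rsad2 and Rtp4, exclude 0 before adjustment, and the lowest changes are those of Gbp2 (-1.11) and Igtp (-0.72).

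Set beside each other, the median log2 change was -0.42 for the 4 type II genes, with 1 of 4 higher, and 0.22 for the 31 type I genes, with 23 of 31 higher. The difference between these medians was -0.64, about the size of its SD between arrays of a genotype (0.58), and was not tested. Without IRF4 KO 3 the type II median was -0.065 and the difference -0.32. The difference was -0.42 without WT 1, -0.97 without WT 3 and -0.23 with array weights. Within the pair IRF4 KO 1 and WT 3 the medians were 0.43 for type II and 0.27 for type I genes, and 4 of 4 and 26 of 31 genes were higher. Across all genes 50.2% were higher in that pair. Over the other 4 arrays the medians were -0.85 for type II and 0.17 for type I genes, with 0 of 4 and 21 of 31 higher (50.1% of all genes). All 4 type II genes thus differed in opposite directions in the 2 sets of arrays, as did 9 of 31 type I genes and 47.9% of all genes. Rtp4, Usp18 and Rsad2 were higher in both sets: Rtp4 by 0.45 and 1.27, Usp18 by 0.72 and 0.90, and Rsad2 by 0.21 and 0.73.

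Fitted over the 4 arrays alone, 0 of the 35 members passed in limma, against 0.0275% of all genes (5 of 18194), and 6 had an unadjusted p under 0.05 (17.1%, against 3.87% of all genes). Gbp2 came nearest, with a change of -1.84 and an adjusted p of 0.0869; Rtp4 followed at 1.27 with 0.278, and Igtp at -1.30 with 0.654. Usp18 and Rsad2 were the other 2 higher and Ifi35 the other lower gene of the 6. The difference between the genotype effect in the pair and that over the other 4 arrays was also fitted for every gene, a test added after the data were seen. The pair has 1 array per genotype and gives no spread of its own, so the error comes from the other 4 arrays and both arrays of the pair are assumed to vary like them. It passed for 0 of 35 members, against 0.0824% of all genes (15 of 18194). For Gbp2 that difference was 2.21 (SE 0.53, adjusted p = 0.386 in limma), and for Igtp 1.73 (SE 0.63, adjusted p = 1).

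Further genes that IFN-gamma induces were read from a list, and most had the sign of Gbp2 and Igtp in each set of arrays. Of 11 measured, 9 were lower in IRF4 KO and 2 higher, 0 passed in limma, and the median change was -0.55 against -0.0015 over all genes. Within the pair 10 of 11 were higher (median 0.70) and over the other 4 arrays 1 of 11 was higher (median -1.08). Gbp6 read 5.91, 6.46 and 4.71 in IRF4 KO and 7.29, 6.94 and 5.90 in WT, a change of -1.02. Gbp7 was at -0.84 and Ifi47, an immunity-related GTPase gene, at -0.68. In all 3 genes WT 1 and WT 2 were the highest arrays, as in 6.23% of all genes. Ciita, the master regulator of MHC class II genes, was at 0.47, with levels of 3.08 to 4.16 over the arrays. Cxcl9, an IFN-gamma-induced chemokine gene named after its values were seen, read 4.32, 3.53 and 3.62 in IRF4 KO and 7.66, 3.70 and 3.47 in WT. Its WT 1 array stood alone, so the Cxcl9 change of -1.12 rests on that array.

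The class II genes under Ciita had larger differences of the same signs, and were the 5 genes called over the 4 arrays. H2-Aa read 10.96, 7.76 and 6.49 in IRF4 KO and 10.27, 10.11 and 10.28 in WT. IRF4 KO 2 and IRF4 KO 3 were far below the WT arrays and IRF4 KO 1 above them. The difference of effect between the sets of arrays was 3.75 for H2-Aa (SE 0.62, adjusted p = 0.0479 in limma), and the adjusted p of the 5 genes ran from 0.0129 to 0.0479, with an error taken from the same 4 arrays. In contrast to Gbp2, H2-Aa was as high in WT 3 as in WT 1 and WT 2. Markers of macrophages, cells that express class II genes, had a median of 1.16 in the pair and -0.70 over the other 4 arrays. Cd68, Csf1r, Lyz2 and Ctss changed sign between the sets, Adgre1 and Cd14 were higher in both, and Mrc1 was lower in both. The part of macrophages in the type II and class II differences was not tested. Over all 6 arrays the class II genes had 5 of 5 lower, a median of -1.53 and 0 past the test.

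**Figure D5:**
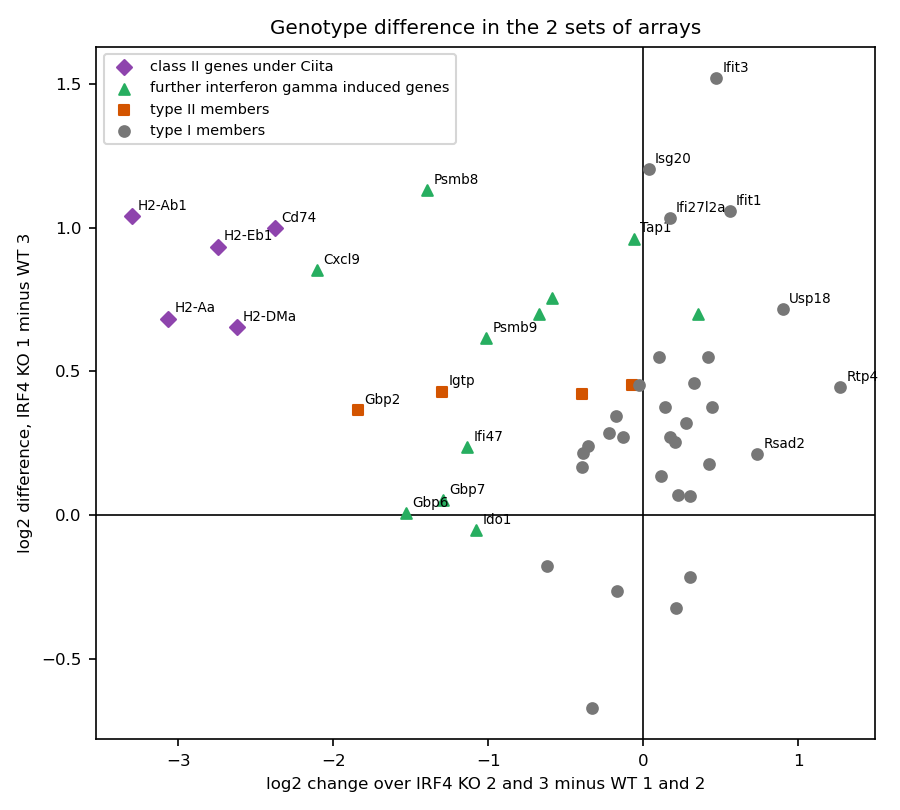
log2 change over IRF4 KO 2 and 3 minus WT 1 and 2 (x axis) against the log2 difference IRF4 KO 1 minus WT 3 (y axis), with 1 point per gene for class II genes, further IFN-gamma-induced genes, type II members and type I members. Type II members and class II genes all lie left of 0 and above 0, while 21 of 31 type I members lie right of 0.

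The type I members also varied with the pair of arrays that stood apart. IRF4 KO 1 and WT 3 were both above all other 4 arrays in 15 of 35 members, or 42.9% against 17.4% of all genes, and both below them in 3 (8.57% against 19.8%). The 15 include Usp18, Ifit1, Ifit3, Bst2, Ifi27l2a, Isg20 and Rtp4. Ifi27l2a had the widest gap, at 5.93 in IRF4 KO 1 and 4.89 in WT 3 against 3.08 to 3.72 on the other 4. The mean levels of the macrophage, cartilage and fibroblast markers were high on the same 2 arrays, Mrc1 excepted; their part in these levels was not tested. Oas3, Oasl1 and Mx2 were the 3 members lowest on both arrays. The mean deviation of the type I genes was 0.45, -0.03 and -0.10 on the IRF4 KO arrays and -0.24, -0.20 and 0.12 on the WT arrays, so within each set of arrays the IRF4 KO arrays were higher.

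The steps upstream of these genes showed no called difference. Of 9 ligand and receptor genes 6 were higher and 3 lower, with 0 past the test. Ifna1 and Ifna2, type I interferon genes, were at 0.31 each, with mean levels of 4.40 and 3.98, below the median gene level. The type I receptor chain gene Ifnar1 was at 0.25 and the IFN-gamma receptor chain gene Ifngr1 at 0.22. The ligand genes Ifnb1 and Ifng, named after their values were seen, were dim on every array, at 2.68 to 3.17 for Ifnb1 and 2.02 to 2.63 for Ifng. Among markers of the lymphocytes that make IFN-gamma, the 4 NK cell genes and 3 of 4 T cell genes averaged below the median gene level. Of these 4 and 4 genes, 4 and 3 read higher, with medians of 0.13 and 0.18 and 0 past the test. Of 9 kinase and factor genes 4 were higher and 5 lower. Among them the kinase genes Tyk2 and Jak2 were at 0.28 and -0.21. Irf7, the factor that amplifies type I interferon, was at 0.28, and Irf2, which competes with IRF1 at ISREs, at -0.37. Irf2 read 6.51 in WT 3 against 5.08 to 5.50 on every other array. Over the arrays without IRF4 KO 1 and WT 3 the Irf2 change was -0.012.

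Sensors and brakes were similar. Of 8 genes upstream of interferon 6 were higher and 2 lower, with a median of 0.049. Ticam1 (TRIF), the adaptor of TLR3 and TLR4, read 5.39, 5.42 and 5.45 in IRF4 KO and 5.70, 5.78 and 5.78 in WT, so the genotypes did not overlap, with a change of -0.33 (SE 0.17, adjusted p = 0.999 in limma). Cgas, a sensor of DNA, was at 0.14, its partner Sting1 at 0.073 and Tlr9 at 0.19. Of 3 brakes Socs1, which blocks JAK kinases, read 2.45, 2.49 and 2.69 in IRF4 KO and 2.36, 2.27 and 2.11 in WT, without overlap and at dim levels. Socs3 was at -0.27 and Ptpn6 (SHP-1) at 0.12.

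A second list of 16 type I induced genes gave a median of the opposite sign. Of these 16, 5 were higher and 11 lower, with a median of -0.094 and 0 past the test in limma. Lgals3bp, a secreted glycoprotein gene, was the highest at 0.87 and read 7.45 in IRF4 KO 1 against 4.64 to 5.98 on the other 5 arrays. Sp100, a nuclear body gene, read 4.61, 4.61 and 4.35 in IRF4 KO and 5.03, 4.77 and 4.84 in WT, all IRF4 KO arrays below all WT arrays, a change of -0.36. Dtx3l, the partner of Parp9, was at -0.27 and Trim30a at -0.18. The lists were chosen with earlier results of these arrays known, so neither direction is independent evidence.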

How the data were processed

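Values were deposited on the log2 scale, 1 per probe set and array, and the authors made them with Affymetrix Expression Console and RMA, per the submitters' processing notes; the sources used here give no version or setting. RMA compresses changes of dim probe sets. Of 45101 probe sets, 34958 carried 1 gene symbol in the platform annotation, 932 several and 9211 none; only those with 1 symbol were used, and updating symbols through Entrez numbers changed 0. Each gene took its brightest probe set and no dim gene was left out, so all 35 measured members entered the fit.

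IRF4 KO was compared with WT (3 arrays each, 400 ng RNA per array) with limma 3.58.1 in R 4.3.3, two-sided, with no covariate; differences are IRF4 KO minus WT, and calls are an adjusted p under 0.05 over 18194 genes. The fit was tested on simulated data. The number of arrays limits precision. Genes were described array by array if they were among the 8 smallest p, the 8 largest changes, the 4 brightest, the 4 type II genes or without overlap, which gave 13; from the other lists up to 4 with the smallest p were named. Lists were described by counts and medians, with no test over a list. The members, lists and alternatives were chosen with earlier results of these data known. Promoters came from a RefSeq table, in which TATAAA near the start lay mostly in the orientation written.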

Additional observations from a re-analysis of the deposited data

How the results depend on the processing

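No member had an adjusted p under 0.05 in limma over the 6 arrays or in any of the fits tried; the lowest over all alternatives was 0.0624, for Rtp4 with array weights, a fit that stopped before it converged, and at an unadjusted p under 0.05 there were 2 members. The fit with the replicate number as a block called 0 members, and the numbers did not pair the arrays (same-number correlations of -0.516, 0.372 and -0.62). Leaving out 1 array gave 0 calls each time, 17 to 29 members higher, and medians of -0.0135 to 0.254 for the members, 0.0465 to 0.281 for type I and -0.691 to -0.0646 for type II genes; type II minus type I ran from -0.972 to -0.319. With genes below the median level left out, 9 of 19 members were higher. Of the comparisons of each member with an alternative, 469 kept their sign and 40 did not; the cause was not tested. With array weights the sign turned for Zbp1 (0.0509), Eif2ak2 (-0.265), Ifit2 (0.111), Isg20 (-0.244), Mx1 (-0.0215) and Gbp3 (0.123). With array medians subtracted it turned for Eif2ak2 (-0.0018) and Mx1 (-0.0306), with quantile normalization for Mx1 (-0.0181), and with the mean of all probe sets for Samhd1 (0.0389). Over the 4 arrays it turned for Cmpk2 (-0.0255), Mx1 (-0.130) and Irgm1 (-0.0723). Leaving out 1 array turned the sign of 15 differences, which ranged from -0.0198 to 0.316 for Adar, -0.0246 to 0.276 for Cmpk2, -0.296 to 0.257 for Eif2ak2, -0.359 to 0.267 for Gbp3, -0.326 to 0.956 for Ifi27l2a, -0.440 to 0.072 for Ifih1, -0.320 to 0.099 for Ifitm3 and -0.162 to 0.424 for Irgm1. The ranges were -0.113 to 0.774 for Isg20, -0.107 to 0.201 for Mx1, -0.113 to 0.507 for Oasl2, -0.335 to 0.012 for Parp14, -0.0488 to 0.281 for Parp9, -0.379 to 0.0173 for Samhd1 and -0.108 to 0.189 for Zbp1. Of the members with the largest differences, Usp18 ran from 0.411 to 1.31, Ifit1 from 0.287 to 1.02, Ifit3 from 0.256 to 1.13, Rtp4 from 0.693 to 1.46, Gbp2 from -1.79 to -0.616 and Igtp from -1.22 to -0.304. Members below the median level, 16 of 35, lie where RMA compresses differences most.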
